A study of Mus musculus with 6 samples.

Results

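The acute phase reactants described here are 10 genes of mouse liver: the serum amyloid A genes Saa3 and Saa4, the orosomucoid genes Orm1 and Orm2, haptoglobin (Hp), hemopexin (Hpx), lipocalin 2 (Lcn2), C-reactive protein (Crp), the protease inhibitor Serpina3n, and Socs3, a feedback inhibitor of interleukin-6 signalling. They were taken by symbol from the platform annotation of the array. All 10 had a value, among 12393 genes measured, through 13 of the 20380 probe sets that carry 1 gene symbol. The mice were wild type, of C57 background and 1 month of age, and each of the 6 livers was hybridised to its own Affymetrix array. In 3 mice the liver had received an adenoviral vector to overexpress TFEB, a transcription factor of lysosomal and autophagy genes, and the other 3 mice were not injected. No liver given an adenovirus without TFEB was analysed here, so the injection, the vector and TFEB cannot be told apart. Neither the promoter in the vector nor the time from injection to harvest is given in the sources used here.

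The acute phase response is the change in plasma proteins made by hepatocytes when inflammatory cytokines reach the liver. Interleukin-6 acts through the receptor subunit gp130, the kinase JAK1 and the transcription factor STAT3, while interleukin-1 acts through NF-kB, and C/EBP factors and the glucocorticoid receptor strengthen the response. Socs3 is itself a target of STAT3 and shuts the receptor down. Proteins whose transcripts rise in this response are called positive, and those whose transcripts fall, such as albumin, are called negative.

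Short stretches of promoter are shown because genes that moved in opposite directions had similar letters in front of them. The sequences are those of RefSeq on GRCm38.p6, and 8 of the 10 genes matched. The 250 bases before the annotated start are printed 5' to 3' for Lcn2 and Orm2, which were higher in injected livers, and for Saa4, which was lower. Capitals mark matches to the letters searched on both strands, which were TTCNNNGAA for STAT factors, TTGCNNAA for C/EBP factors, GGNNNTTCC for NF-kB, ACANNNTGT for the glucocorticoid receptor and CACGTG for the E-box bound by TFEB.
Lcn2, chr2:32387740-32387989, minus strand: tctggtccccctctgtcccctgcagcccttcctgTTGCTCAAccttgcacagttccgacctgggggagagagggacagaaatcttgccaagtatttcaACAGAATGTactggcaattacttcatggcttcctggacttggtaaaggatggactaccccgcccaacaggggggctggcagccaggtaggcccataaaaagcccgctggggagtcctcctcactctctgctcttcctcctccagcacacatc
Orm2, chr4:63362199-63362448, plus strand: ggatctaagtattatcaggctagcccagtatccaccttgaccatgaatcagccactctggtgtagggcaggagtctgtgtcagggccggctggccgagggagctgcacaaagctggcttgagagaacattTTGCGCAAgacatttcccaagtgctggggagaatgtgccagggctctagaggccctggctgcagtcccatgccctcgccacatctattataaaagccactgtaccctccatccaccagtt
Saa4, chr7:46732604-46732853, minus strand: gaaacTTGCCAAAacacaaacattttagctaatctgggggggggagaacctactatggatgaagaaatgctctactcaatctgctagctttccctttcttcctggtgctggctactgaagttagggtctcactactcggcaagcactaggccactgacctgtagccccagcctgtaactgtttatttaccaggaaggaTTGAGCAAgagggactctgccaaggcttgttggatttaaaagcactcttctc
For Socs3 and Saa3 only the match and 10 bases on each side are shown.
Socs3, chr11:117969502-117969530, minus strand: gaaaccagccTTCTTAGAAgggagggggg
Saa3, chr7:46715758-46715785, minus strand: gtaagtgggaTTATGCAAgatcaaacag

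The C/EBP letters stood before 5 of the 8 genes, Lcn2, Orm2, Saa3, Saa4 and Hpx, against 9.56% of all 32851 promoter windows of this length. In Orm2 the match TTGCGCAA is the same on both strands, and Saa4 held a pair of matches. The STAT letters stood before Socs3 alone (7.02% of all windows), at positions -154 to -146 counted back from -1 at the base before the start. The NF-kB letters were found before Saa3 and Serpina3n (15.7% of all windows), and the glucocorticoid receptor letters before Lcn2 and Serpina3n (5.84%). The E-box letters were found before 0 of the 8 genes (6.02% of all windows). In Lcn2, Orm2 and Socs3, which rose, and in Saa3 and Saa4, which fell, the matches are descriptions of letters in these windows and nothing more.

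Values are log2 expression on the scale the authors deposited. Differences are injected minus not-injected means with the standard error (SE) of limma, a gene was called at a Benjamini-Hochberg adjusted p under 0.05 over all 12393 genes, and "rose" and "fell" are used of called genes. Correlations between arrays over probe sets, which are not independent replicates, were 0.997 to 0.998 within not-injected livers, 0.991 to 0.997 within injected livers and 0.972 to 0.987 between groups. Spike-in RNAs read lower on the injected arrays, by a median difference of -0.32 (-0.49 to -0.06) over 18 hybridisation controls and -0.44 (-0.57 to -0.30) over 24 poly-A controls. These added RNAs move with the group, and their part in the differences below was not tested. Injected replicate 2 was the injected liver closest to the not-injected mean in 62.7% of the 3486 called genes, against 14.7% for replicate 1 and 22.6% for replicate 3. The single Tfeb probe set gave 7.50, 7.59 and 7.47 in controls and 7.48, 7.78 and 7.46 in injected livers, with overlapping groups, and since the sources used here do not give the transgene's sequence this does not check the labels. In bulk liver, fewer cells of a type and less RNA per cell cannot be told apart. The hepatocyte genes Alb and Ttr read 15.06 and 14.94 without injection and differed by -0.01 and 0.02. Of 9 hepatocyte markers measured, 1 rose (Apob, 0.29 ± 0.07), 1 fell (Pck1, -1.14 ± 0.14) and 7 were not called. That is 22.2% called, against 28.1% of all genes. At an unadjusted limma p under 0.05, 1 was higher and 3 were lower. Their summed signal was 195089 to 198261 without injection and 183650 to 190734 with it.

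Of the 10 acute phase genes, 3 rose (Orm2, Lcn2 and Socs3), 3 fell (Saa3, Saa4 and Hp) and 4 were not called (Orm1, Hpx, Crp and Serpina3n). Over all genes 28.1% were called, 14.2% higher and 13.9% lower. That share pools bright and dim genes. Of the 3486 genes called in this fit most were bright, as 2831 were called when only genes at or above the median level were fitted. Lists of bright liver genes can therefore exceed 28.1% through their level alone. The part of brightness in the share given for any list was not tested. Both called and changed by 1.5-fold or more were 6 of the 10, against 9.6% of all genes, and in 7 of the 10 the groups did not overlap, against 46.2% of all genes. The median difference of the 10 genes was 0.05 and that of all genes -0.05. The genes of this 1 response stood on both sides of no change. For that reason 3 pairs of related genes (Orm1 with Orm2, Saa1 with Saa4, Hp with Hpx) are set side by side below.

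**Figure D1:**
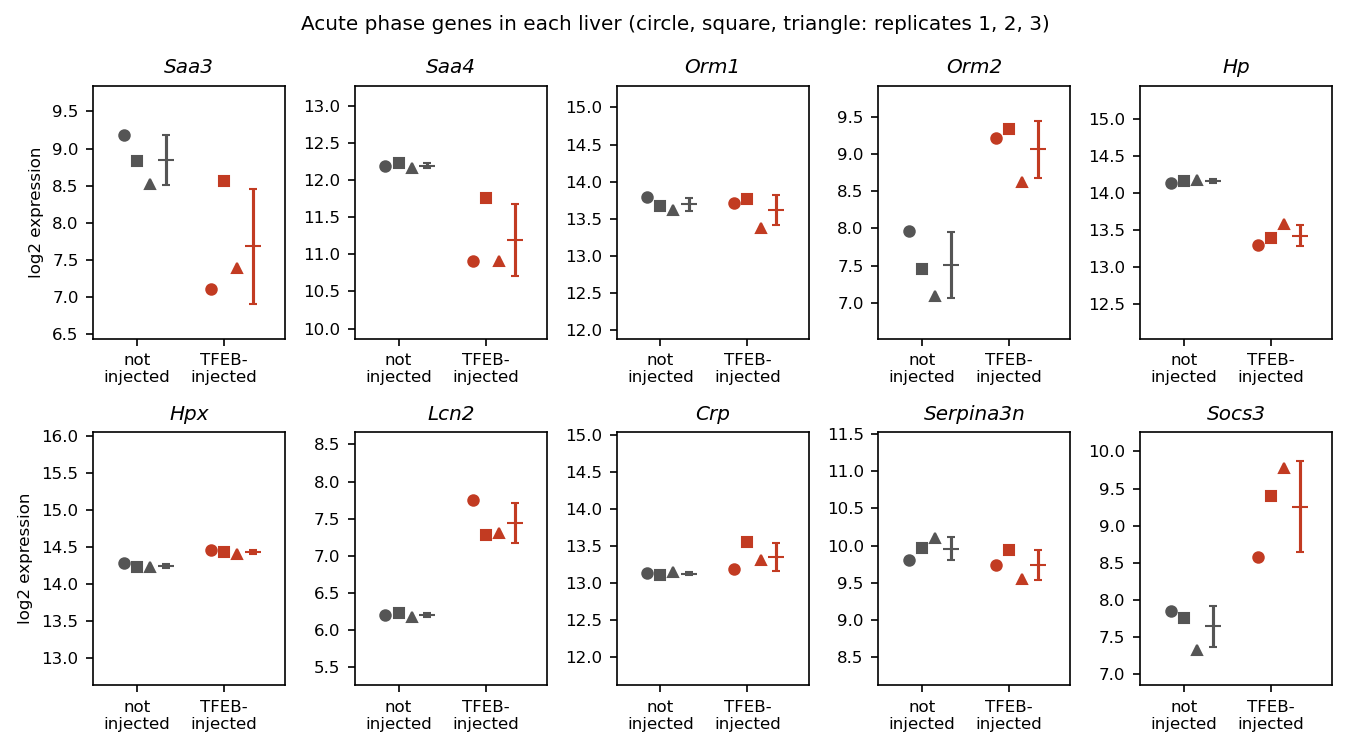
Log2 expression of the 10 acute phase genes in each liver, with the mean and SD (n = 3) beside the points of each group; every panel spans the same number of log2 units. The injected livers lie above all not-injected livers for Orm2, Lcn2 and Socs3 and below them for Saa4 and Hp, while for Saa3 injected replicate 2 (8.56) lies among the not-injected livers.

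Saa3 encodes an inducible serum amyloid A made by liver and also by macrophages and fat cells. Saa3 read 9.18, 8.84 and 8.52 in not-injected replicates 1 to 3 and 7.10, 8.56 and 7.39 in injected replicates 1 to 3. Injected replicates 1 and 3 were low, while replicate 2 lay just above the lowest not-injected liver, so the groups overlapped. Saa3 fell 2.23-fold (-1.16 ± 0.36, limma adjusted p = 0.0486). Leaving out any 1 liver other than injected replicate 2 ended the call (adjusted p 0.0751 to 0.139), and the difference was -1.60 without injected replicate 2 (adjusted p = 0.000657).

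Saa4 encodes the constitutive serum amyloid A, carried on high-density lipoprotein. Its brighter probe set read 12.19, 12.22 and 12.16 without injection and 10.91, 11.75 and 10.91 with it. The not-injected livers were nearly equal, and all injected livers were lower, replicate 2 by the least. Saa4 fell by 1.00 ± 0.21 (SE), or 2.00-fold (adjusted p = 0.0132), and its second probe set, tested among all probe sets (26% of which were called), read -0.96 ± 0.26 (adjusted p = 0.0308). The call was lost without not-injected replicate 2 (adjusted p = 0.0515), and the difference was -1.28 without injected replicate 2.

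Saa3, Saa4, Saa1 and Saa2 follow each other on chromosome 7. Saa1 and Saa2, the major inducible forms in plasma, were not called. The main probe set of Saa1 read 11.26, 11.05 and 10.81 without injection and 10.43, 11.22 and 10.03 with it, and that of Saa2 read 8.85, 8.56 and 8.20 against 8.03, 8.96 and 7.70. For both, injected replicate 2 stood within or above the not-injected livers and the other 2 injected livers below all of them. Saa1 differed by -0.48 ± 0.28 (adjusted p = 0.238) and by -0.39 ± 0.30 (adjusted p = 0.357) in its second probe set, and Saa2 by -0.31 ± 0.31 (adjusted p = 0.49), all tested among all probe sets. The suffixes of the second Saa1 probe set and of the Saa2 probe set mark probes that can bind related transcripts, so Saa1 and Saa2 are uncertain as separate genes. Within each array the log2 value of Saa4 minus that of Saa1 was lower by 0.52 ± 0.18 (SE, n = 3) on average after injection (difference -0.52, two-sided exact permutation p = 0.1, the smallest that 20 assignments allow).

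Orm1 and Orm2 encode alpha-1-acid glycoproteins, plasma carriers of lipophilic ligands. With Orm3 between them they lie side by side on chromosome 4. Orm2 read 7.97, 7.46 and 7.09 in not-injected livers and 9.22, 9.34 and 8.63 in injected livers. All injected livers were above all others, by a gap of 0.66. Orm2 rose 2.94-fold (1.56 ± 0.25, adjusted p = 0.00462), and it ranked 161 from the top among the differences of all genes.

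Orm1, the major form in plasma, read 13.80, 13.67 and 13.62 without injection and 13.71, 13.76 and 13.38 with it. The groups overlapped, and the difference of -0.08 ± 0.11 was not called (adjusted p = 0.628). Its sign turned after a second quantile normalisation (0.0023) and without injected replicate 3 (0.040). Orm3 rose, from 5.43, 5.64 and 5.43 to 6.01, 6.30 and 5.78 (0.53 ± 0.14, adjusted p = 0.0246). Its not-injected values lay near or under the lower quartiles of those arrays (5.49 to 5.56), where differences are compressed. Within each array the log2 value of Orm2 minus that of Orm1 was higher by 1.64 ± 0.23 (SE, n = 3) after injection (exact permutation p = 0.1, the smallest possible). The 2 probe sets read at unlike levels, with not-injected means of 13.69 for Orm1 and 7.51 for Orm2. Whether differences are compressed at the level of Orm1 was not tested.

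Hp encodes haptoglobin, which binds haemoglobin released from red cells. It read 14.13, 14.17 and 14.18 in not-injected livers and 13.30, 13.40 and 13.58 in injected livers. The control values lay within 0.05 of each other and every injected liver was lower by at least 0.55. Hp fell 1.66-fold (-0.73 ± 0.08, adjusted p = 0.00112).

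Hpx encodes hemopexin, which binds free haem. It read 14.28, 14.23 and 14.23 without injection and 14.46, 14.43 and 14.41 with it, so the groups were apart by 0.13. The difference of 0.19 ± 0.06 was not called (adjusted p = 0.0511) and passed in 5 of 14 alternatives, with values of 0.18 to 0.20 in those 5. Within each array the log2 value of Hp minus that of Hpx changed by -0.92 ± 0.10 (SE, n = 3), again with an exact permutation p of 0.1. Over the 3 pairs the Benjamini-Hochberg adjusted p was 0.1, and no smaller p could be reached with 3 livers in a group. These pairs were chosen after the values had been seen.

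Lcn2 encodes lipocalin 2, which keeps iron from bacteria by binding their siderophores. Lcn2 read 6.21, 6.23 and 6.17 in not-injected livers and 7.75, 7.28 and 7.30 in injected livers. The not-injected livers were almost alike, and the injected livers stood above them by at least 1.05. Lcn2 rose 2.36-fold (1.24 ± 0.13, adjusted p = 0.000747), with the smallest p of the 10 genes, and the call held in all 13 alternatives that gave it a value.

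Neutrophils and macrophages can also make Lcn2 and Saa3. Of 10 neutrophil markers measured, 1 rose and 0 fell, against 28.1% called over all genes. The riser was S100a8, a calcium-binding protein of granulocytes (5.50, 5.28 and 5.48 against 6.73, 5.98 and 5.77, adjusted p = 0.047), while the granule gene Ngp differed by 0.05. Without injection S100a8 read near or under the lower quartiles of those arrays (5.49 to 5.56). S100a9 read 6.97, 6.62 and 6.45 against 7.87, 7.04 and 6.74 (adjusted p = 0.183), and the summed signal of the list was 608 to 661 without injection and 609 to 808 with it. Ltf, Mmp8 and Mpo were dim, below the lower quartile on each of the arrays.

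Of 14 macrophage and Kupffer cell markers 3 rose, 1 fell and 10 were not called, so that 28.6% were called, near the 28.1% of all genes. At an unadjusted limma p under 0.05, 7 were higher and 1 was lower, and the median difference was 0.30 (all genes -0.05). Their summed signal was 11026 to 14035 without injection and 14336 to 16623 with it. Cd68, of lysosomes in macrophages, rose by 1.74 ± 0.33 and the lysozyme gene Lyz2 by 0.93 ± 0.13, while Adgre1 and Clec4f, which define macrophages and Kupffer cells, differed by 0.09 and -0.11 and were not called. The one that fell was Marco, a scavenger receptor of macrophages (-0.80 ± 0.20, adjusted p = 0.0238), named after its values were seen. The macrophage receptor gene Cd163, which is not in this list, was also lower and is given below with the partners. The 14 markers leaned higher as a list, and Marco was its only gene called lower. The part of macrophages in the differences of Lcn2 and Saa3 was not tested. Among cholangiocyte, adipocyte and T and NK cell markers 0 of 5, 0 of 4 and 0 of 7 were called by limma, and among 8 stellate cell markers 1 fell (Reln, -0.38 ± 0.11). At an unadjusted limma p under 0.05, 1 cholangiocyte marker and 1 adipocyte marker were higher, and 1 marker of each of the 3 uncalled lists was lower. Of the stellate cell markers 1 was higher at that p (Col3a1, 0.94, not called) and 1 was lower. The adipocyte gene Adipoq and the cholangiocyte gene Krt7 were dim, below the lower quartile on each of the arrays.

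Crp encodes C-reactive protein, a pentraxin that changes little in the mouse acute phase. It read 13.13, 13.10 and 13.15 without injection and 13.19, 13.55 and 13.31 with it. The groups were apart by 0.03, and the difference of 0.22 ± 0.10 was not called (adjusted p = 0.129). Serpina3n encodes an inhibitor of serine proteases. It read 9.80, 9.97 and 10.10 against 9.73, 9.94 and 9.54, with overlapping groups and a difference of -0.22 ± 0.12 (adjusted p = 0.213). Of 9 other Serpina3 genes listed only Serpina3a had a probe set with 1 symbol, and it fell by 0.30 ± 0.08 (adjusted p = 0.0239).

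By its brightest probe set Socs3 was the member with the largest rise, and it was the one on which probe sets disagreed. Its brightest probe set read 7.85, 7.76 and 7.33 without injection and 8.58, 9.40 and 9.78 with it. All injected livers were higher, by at least 0.73, and replicate 1 was the lowest of them. Socs3 rose 3.04-fold (1.61 ± 0.29, adjusted p = 0.00683). A second probe set read 7.28, 7.00 and 6.94 against 7.99, 8.78 and 9.15 and gave 1.57 ± 0.27. The third read 6.64, 6.97 and 6.73 against 6.73, 7.03 and 7.40, overlapped between groups and was not called (0.27 ± 0.17, adjusted p = 0.264, over all probe sets). The 2 called probe sets carry the suffix x, for probes that can also bind other transcripts, and the third does not. The mean of the 3 gave 1.15 (limma adjusted p = 0.0105), below Orm2 (1.56) and Lcn2 (1.24) in the same fit.

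**Figure D2:**
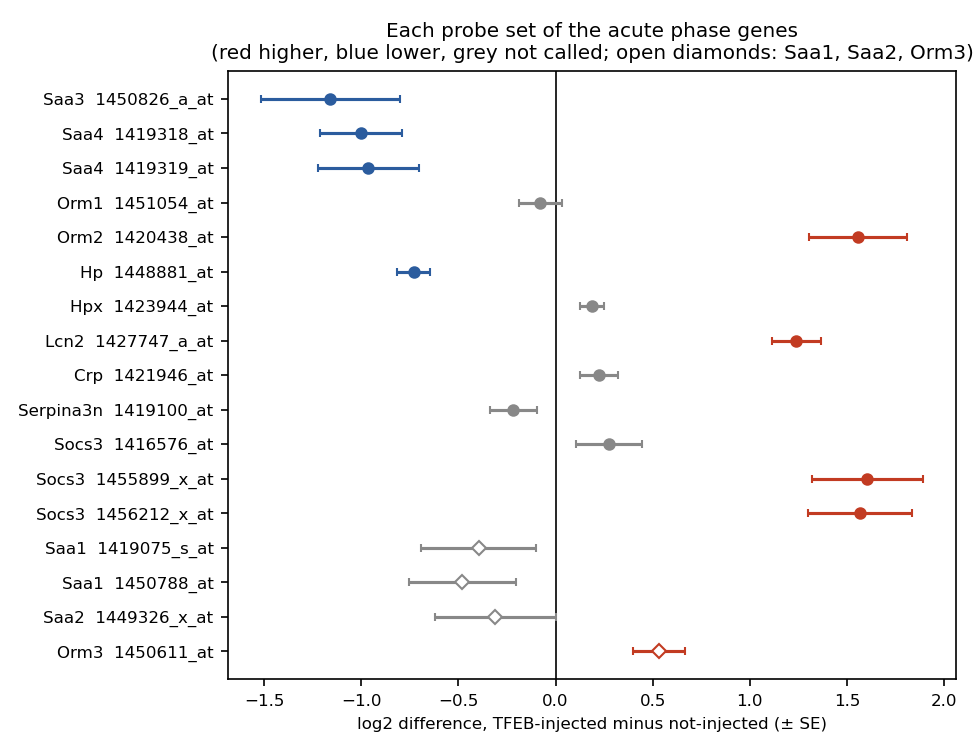
Log2 difference of each probe set (point, with its SE from limma over all probe sets), TFEB-injected minus not-injected; red marks called higher, blue called lower, grey not called, and open diamonds Saa1, Saa2 and Orm3. The Saa4 probe sets sit together near -1, whereas the Socs3 probe sets are split between 0.27 and about 1.6.

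The genes also differed in how much they varied between livers of the same group. Without injection Orm2, Saa3 and Socs3 spanned 0.88, 0.66 and 0.52 on the log2 scale, and 99.7%, 99.0% and 97.9% of all genes had a smaller SD. Hp, Crp, Hpx, Lcn2 and Saa4 spanned 0.05 to 0.06, and 7.4% to 11.7% of all genes had a smaller SD. In these controls replicate 1 was the highest and replicate 3 the lowest for Saa3, Orm1, Orm2 and Socs3, and the order was turned for Serpina3n and Hp.

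Among injected livers Saa4, Lcn2, Crp and Hp were spread more widely than among controls. Saa4 spanned 0.85, and 97.6% of all genes then had a smaller SD. Saa3 spanned 1.46 and Socs3 1.20. Injected replicate 2 was the highest of its group for 6 of the 10 genes (Saa3, Saa4, Orm1, Orm2, Crp and Serpina3n), of which Saa3 and Saa4 fell and Orm2 rose between groups. Among the 6 called genes it was the liver closest to the not-injected mean for 3, against 62.7% over all called genes. Hpx spanned 0.04, and 3.84% of all genes had a smaller SD.

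**Figure D3:**
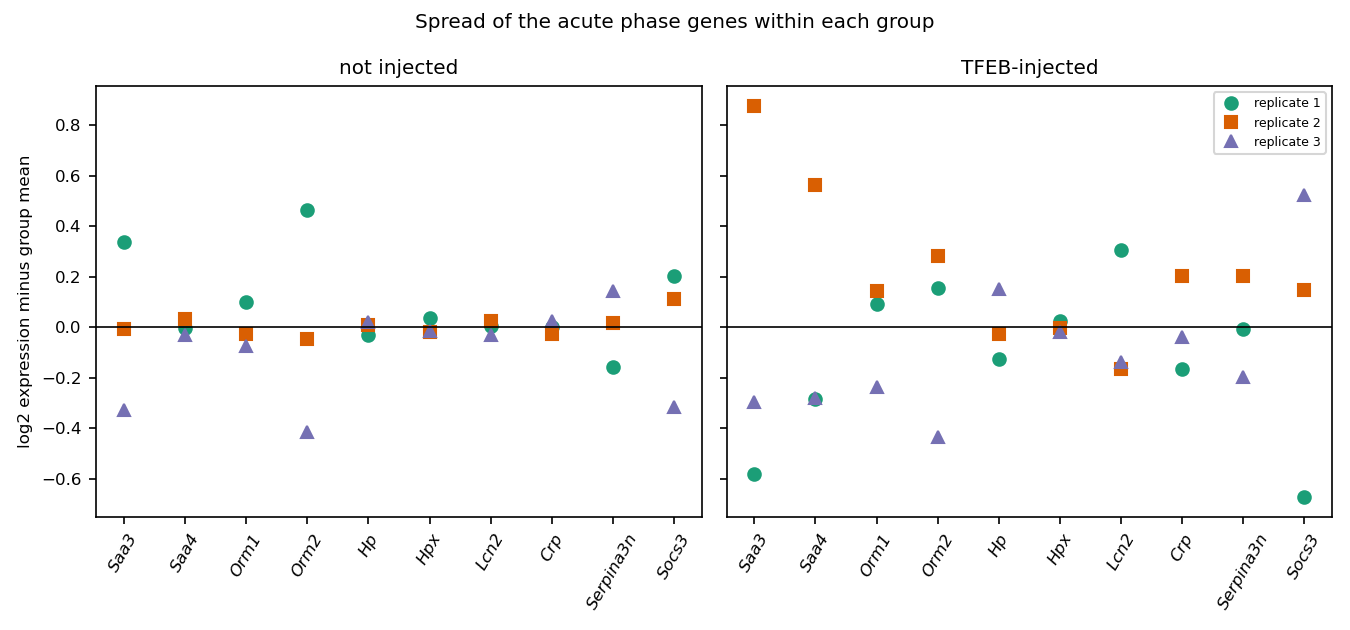
Log2 expression of each gene minus the mean of its own group, for not-injected livers (left) and TFEB-injected livers (right), with a symbol for each replicate. Orm2, Saa3 and Socs3 spread widely in controls, and Saa4 spreads in injected livers (0.85) but hardly in controls (0.06).

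Other positive acute phase genes were also divided. Of 31 measured, 9 rose, 11 fell and 11 were not called (64.5% called, against 28.1% of all genes), with a median difference of -0.14 (all genes -0.05). Many of these genes are bright, and bright genes were called more often across the array. The metallothioneins Mt1 and Mt2 rose by 4.49 ± 0.24 and 3.62 ± 0.38, and the endotoxin co-receptor Cd14 by 1.60 ± 0.19. Serping1, the inhibitor of complement C1, fell by 0.42 ± 0.06. Outside the naming rule and chosen after the values were seen, Lbp, which hands endotoxin to Cd14, rose 2.44-fold (10.26, 9.73 and 9.64 against 11.16, 10.82 and 11.52). The trypsin inhibitor Spink1 rose from 5.54, 5.53 and 5.10 to 9.71, 7.23 and 9.49, again with replicate 2 nearest to the controls. Its not-injected values were near or under the lower quartiles of those arrays (5.49 to 5.56), so no fold is given. The complement factor C9, the fibrinogen-like Fgl1 and Itih3 fell by 0.63, 0.75 and 0.59, and of the fibrinogen chains Fga fell by 0.29 ± 0.06 (adjusted p = 0.0142), while Fgb and Fgg differed by -0.21 and -0.09 and were not called.

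Negative acute phase genes were mostly lower. Of 20 measured, 11 fell, 1 rose and 8 were not called, against 13.9% of all genes lower. The median difference was -0.31 (all genes -0.05). Lcat, which esterifies plasma cholesterol, fell by 0.75 ± 0.11, the fetuin Fetub by 0.58 ± 0.09, Itih2 by 0.50 ± 0.08 and the lipoprotein-bound paraoxonase Pon1 by 0.53 ± 0.09. Alb, Ttr and Apoa1 were among those not called. The spike-ins also read lower (medians -0.32 and -0.44), and their part in this list was not tested.

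In interleukin-6 family signalling, from which Socs3 was left out, 8 of 29 genes rose, 2 fell and 19 were not called, so that 34.5% were called against 28.1% of all genes. The STAT-induced inhibitor Cish rose by 1.29 ± 0.24, the kinase Jak1 by 0.73 ± 0.12 and the phosphatase Ptpn2 by 0.57 ± 0.09. Lifr, the receptor of leukaemia inhibitory factor, fell from 11.83, 11.88 and 11.76 to 9.74, 10.82 and 10.13 (-1.59 ± 0.24). Cish read 7.43, 7.57 and 7.38 without injection and 8.14, 9.20 and 8.91 with it, and as for Socs3 injected replicate 1 was the lowest of its group. Named outside the rule, the receptor genes Il6ra and Osmr rose by 0.62 ± 0.18 and 0.88 ± 0.19, while Il6st (gp130) and Stat3 differed by 0.21 and 0.03 and were not called. Il6 itself was dim, below the lower quartile on each of the arrays.

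In interleukin-1, TNF and NF-kB signalling 6 of 32 genes rose, 5 fell and 21 were not called (34.4% called, against 28.1% of all genes). Il1rap, the accessory receptor of interleukin-1, fell by 1.19 ± 0.13, and Ikbkg, a subunit of the kinase that releases NF-kB, by 0.39 ± 0.08. The TNF receptor Tnfrsf1b rose by 0.71 ± 0.07 and the bacterial lipoprotein receptor Tlr2 by 1.12 ± 0.16. Among 16 liver transcription factors of acute phase genes 3 rose, 4 fell and 9 were not called (43.8% called, against 28.1% of all genes). Cebpb, a factor of the inflammatory response, rose by 0.35 ± 0.07, while Cebpa, a factor of the resting hepatocyte, fell by 0.53 ± 0.12, Nr5a2 by 0.62 ± 0.08 and Foxa3 by 0.82 ± 0.17.

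Of 17 glucocorticoid response genes 2 rose, 6 fell and 9 were not called (47.1% called, against 28.1% of all genes, with a median difference of 0.0034). Tyrosine aminotransferase (Tat), a classical hepatic target, fell by 1.45 ± 0.10, Tsc22d3 by 1.34 ± 0.15 and Pck1 of gluconeogenesis by 1.14 ± 0.14, while Zbtb16 rose by 1.58 ± 0.22. Tsc22d3 read 11.15, 11.18 and 11.67 without injection and 9.85, 10.06 and 10.09 with it, with the groups apart.

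Of 24 measured partners of the encoded proteins, 5 rose, 4 fell and 15 were not called (37.5% called, against 28.1% of all genes). Cd163, the macrophage receptor that takes up haptoglobin bound to haemoglobin, read 8.94, 8.71 and 8.15 without injection and 4.99, 5.33 and 4.61 with it, and since its injected values are under the lower quartile of their arrays (5.46 to 5.49) no fold is given. Hp and its receptor gene were both lower. Hmox1, which breaks down haem, rose by 1.34 ± 0.14 and the iron exporter Slc40a1 by 1.19 ± 0.09, and plasma kallikrein, encoded by Klkb1, fell by 0.97 ± 0.11. Named outside the rule, Lrp1, the receptor of hemopexin, fell by 0.56 ± 0.10.

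**Figure D4:**
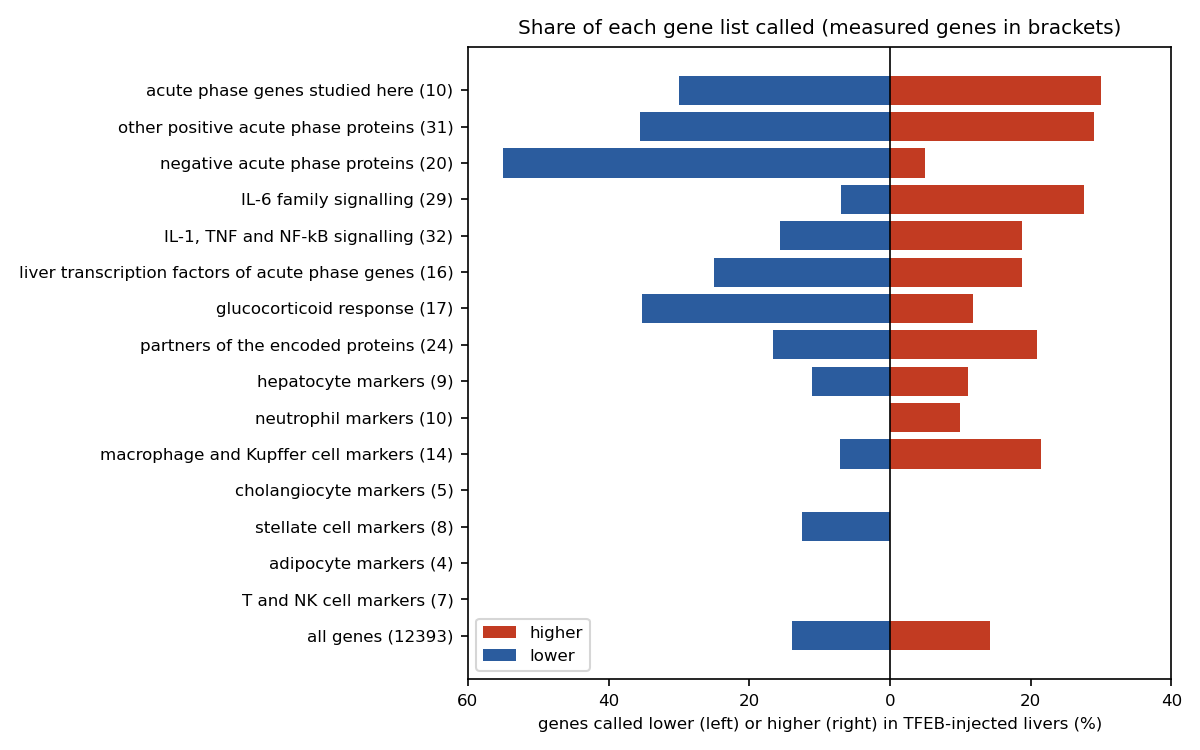
Share of the measured genes in each list that were called lower (left, blue) or higher (right, red) by limma in TFEB-injected livers, in percent, with the number measured in brackets. Negative acute phase genes lie mostly to the left (11 of 20), and all genes together are even (13.9% and 14.2%).

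The genes whose pattern was nearest to each called member were found by the root mean square distance between centred log2 profiles over the 6 arrays, where a smaller distance means a more similar profile. Nearest to Hp were Faah (0.027), Txndc5 (0.047) and Nags (0.054), and nearest to Saa4 were Slc25a23 (0.061), Hsd11b1 (0.064) and Haao (0.068). Lcn2 was followed by Klf10 (0.093), Serpinb9 (0.103) and Gal3st1 (0.104). The other called members had no profile as near. Socs3 was nearest to Ier3 (0.165), Morc4 (0.245) and Cish (0.286), which is also in the interleukin-6 list. Saa3 was nearest to Tex12 (0.203), Cyp2c37 (0.205) and Car5a (0.213), and Orm2 to Tifa (0.215), Tmem184a (0.236) and Sulf2 (0.236).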

How the data were processed

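The deposited table holds log2 values per probe set from 6 arrays, which the authors made with the R package affy and RMA, per the submitters' processing notes, with no version and no filter given in the sources used here. RMA equalises arrays, which hides a shift of all transcripts and compresses low values. Whether the brightest values, such as those of Alb and Ttr, are compressed too was not tested. There are no detection calls, and precision is limited by the number of arrays. The platform annotation gave 1 symbol to 20380 of 22690 probe sets, several to 691 and none to 1555, beside 64 controls. The gene IDs of 12369 genes were in the RefSeq table of GRCm38.p6, and 0 symbols changed.

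Where a gene had several probe sets, the one brightest on average was used. The groups were compared with limma 3.58.1 in R 4.3.3 (lmFit, eBayes, two-sided, no filter, no covariate). The labels call the arrays biological replicates. Named genes were the 10 members, the up to 4 called genes of smallest p in a pathway list, the up to 2 in a marker list with its defining markers, and the 3 nearest profiles. The members and lists were chosen with earlier results of these data known. In simulated data with 12393 genes and 200 changed, planted log2 changes of 0.5 were called in 55% and of 1 in 88%, and 5.92% of calls were unchanged genes. There the genes were drawn independently, with the same SD in both groups. In the real data the median SD was 0.084 without injection and 0.101 with it, and 3486 genes were called. The simulated rates therefore need not hold for the real fit. Tables and plots used Python 3.11.15, pandas 2.3.3, numpy 2.4.6 and matplotlib 3.10.9.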

Additional observations from a re-analysis of the deposited data

How the results depend on the processing

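The settings tried were the replicate number as a block, an intensity trend, only genes not under the median level, probe sets averaged per gene, each probe set tested on its own, a second quantile normalisation, median centring, array weights and leaving out each array. Of 139 differences of the 10 genes under these settings, 125 kept their direction and their side of the threshold, 6 lost the call (5 of Saa3, 1 of Saa4), 6 gained it (5 of Hpx, 1 of Crp) and 2 turned sign. Both that turned were of Orm1, which read 0.0023 after a second quantile normalisation and ran from -0.15 to 0.040 when 1 array was left out; the cause was not tested. After the second quantile normalisation 5 acute phase genes were called higher, Crp (0.29, adjusted p = 0.0473) and Hpx (adjusted p = 0.0499) being added. Leaving out 1 array gave 1973 to 4378 called genes (1973 and 2032 when the array left out was not-injected replicate 2 or 3, and 2103 when it was injected replicate 1), 4 to 6 called acute phase genes and 1 to 3 called lower, with Hp alone left among the lower without not-injected replicate 2; fewer samples entered these fits. Lcn2 is not among the brighter genes and had no value there. Same-numbered livers correlated in their deviations from the group means by 0.15, 0.08 and 0.02, and different-numbered livers by -0.18 to 0.07. Each not-injected liver correlated best with the injected liver of its own number, while injected replicate 3 did not correlate best with its own. The labels name no pairs, so the numbers were not taken as pairs in the main fit. Whether same-numbered livers share a batch was not tested. With the replicate block 3348 genes were called, and 3 of the 10 genes were higher and 3 lower. Genes read near the lower quartile of the arrays have compressed differences.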
